A study of Saccharomyces cerevisiae with 151 samples.

Results

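The genes described here are 10 members of the phosphate regulon of Saccharomyces cerevisiae: PHO84, PHO89, PHO5, PHO81, SPL2, VTC1, VTC3, VTC4, PHM6 and PHM8. They were chosen by gene symbol, as the probe sets that the array's annotation assigns to these genes alone, and make up 10 of the 5656 genes that had a probe set of their own on 151 arrays. All 10 were among the 5611 genes that passed the filter on low signals. VTC4 had 2 probe sets, of which the brighter was used, and each other member had 1.

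The arrays were single-colour Affymetrix yeast arrays of total RNA from BY4741, a haploid laboratory strain, and from deletion strains made in it, before and after 3-aminotriazole (3AT). 3AT inhibits an enzyme of histidine synthesis and was added at 100 mM, which the series describes as inducing amino acid starvation. Cells grew at 28 °C in synthetic complete (SC) medium, and the sample called 0 min was taken at an OD600 of 0.5, before 3AT. The untreated 0 min arrays of each strain are its own control, and the wild type (WT) carries none of the deletions. WT and the single deletions gcn4, leu3 and gat1 were sampled at 0, 10, 20, 30, 45, 60, 90 and 120 min. The double deletions gat1gcn4, gcn4leu3 and gat1leu3 were sampled at 0, 10, 20, 30, 45 and 60 min. Each of these 50 groups had 3 arrays, with 5 exceptions of 2 arrays: gcn4 at 60 min, gat1 at 20 min, gat1leu3 at 45 min, and both the 0 min and the 45 min group of gat1gcn4. A met31 strain, read on a single array at each of 6 times, was kept out of all tests, and its arrays after 0 min carry no treatment in their own labels. Gcn4 activates amino acid synthesis genes, Leu3 controls branched-chain amino acid genes, Gat1 activates genes for poor nitrogen sources, and Met31 acts on sulfur amino acid genes.

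When inorganic phosphate runs low in yeast, the cyclin-dependent kinase Pho85 with its cyclin Pho80 is held inactive by the inhibitor Pho81. The transcription factor Pho4 then stays in the nucleus and, with Pho2, activates genes that take up, release, store and mobilise phosphate. Among them are high-affinity transporters, secreted acid phosphatases and the vacuolar transporter chaperone (VTC) complex, which makes polyphosphate at the vacuole membrane. PHO84 RNA is a widely used readout of this pathway. The medium's phosphate was not measured in these data.

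Signals are the deposited intensities after each array was brought to a 2% trimmed mean of 500 by multiplication. They are shares of an RNA sample from a whole culture, so a change in every cell and a change in part of the cells cannot be told apart. The level of one probe set cannot be set against that of another, so each gene is compared only with itself. As deposited, 78 arrays shared a common scale and 73 did not, and the unscaled ones were all arrays of met31 and the double deletions, plus replicate 3 of leu3 and of gcn4. WT and gat1 arrays were all scaled, whereas deposited scale and strain cannot be told apart where a double deletion is set against WT. The deleted gene was low in its own strain. GCN4 had a median signal of 258 over 23 gcn4 arrays against 6734 over 24 WT arrays. A check of the labels set GCN4, LEU3 and GAT1 on each array against their WT medians divided by 3 (2245, 39.0 and 45.9). By it 5 arrays of the 7 replicated strains went against their label. In gcn4 at 90 min replicate 3 GCN4 read 2285, above its cut. On the rest a gene not deleted in that strain fell below its cut. For LEU3 this was WT at 30 min replicate 2 (1.05). For GAT1 it was WT at 90 min replicate 2 (36.9), leu3 at 30 min replicate 2 (38.1) and gcn4leu3 at 30 min replicate 1 (24.7). The 204 member values called below within a strain or against WT, in level or in change, were refitted without these 5 arrays. Of these values 176 kept their call and 28 lost it, with the same direction in all 204. The labels do not state whether replicates were separate cultures. The p-values therefore reflect only the spread among these arrays, which may be technical.

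Changes are given as log2 differences of signal + 16 with their standard error (SE), from 1 limma fit over all arrays but those of met31. A gene was called where the Benjamini-Hochberg adjusted p over all 5611 genes was under 0.05, two-sided. An F-test over all times after 0 min asks whether a gene changed at any time within a strain. Comparisons within a strain share its 0 min arrays, and comparisons with WT share the WT arrays, so they are not independent of each other.

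In WT only PHO84 of the 10 members changed over the time course by the F-test (adjusted p = 0.0013), beside 7.2% of all genes. That count was 0 without WT replicate 3, 2 without the arrays against their label and 4 in a fit of the scaled arrays alone. PHO84 encodes the main high-affinity phosphate transporter of the plasma membrane. Its signal was 49.4, 57.8 and 63.9 in the 3 WT arrays at 0 min, 252, 294 and 449 after 10 min, 204, 244 and 813 after 20 min and 181, 472 and 786 after 30 min. All 9 arrays from 10 to 30 min lay above the 0 min arrays, and the replicates spread widely at 20 and 30 min. The log2 rise was 2.22 ± 0.59 at 10 min (adjusted p = 0.029), 2.31 ± 0.59 at 20 min and 2.55 ± 0.59 at 30 min (adjusted p = 0.0055). By 45 min the arrays read 142, 155 and 139.5, and at 120 min 55.1, 126 and 170.1, when the difference from 0 min no longer passed the test (log2 0.76 ± 0.59, adjusted p = 0.69). The called rise of PHO84 in WT thus covered the samples at 10, 20 and 30 min.

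Among the other members in WT, PHO89, which encodes a sodium-coupled phosphate transporter, rose at 10 min from 36.6, 38.7 and 43.9 to 206, 180.1 and 506 (log2 2.35 ± 0.63, adjusted p = 0.035). VTC3, a subunit of the polyphosphate-making VTC complex, rose at 30 min from 143, 164 and 151 to 425, 279.6 and 329 (log2 1.08 ± 0.26, adjusted p = 0.0084). PHM8, which encodes a phosphatase of lysophosphatidic acid and nucleotides, fell by 90 min from 150.1, 153 and 94.5 to 7.72, 63.6 and 26.9 (log2 -1.75 ± 0.45, adjusted p = 0.029). In all, 2 of 10 members were called higher at 10 min (0.642% of all genes), 1 at 20 min (1.23%) and 2 at 30 min (0.945%). None of these WT calls held in every fit without 1 replicate. Such a fit keeps 2 WT arrays per group and has a larger error, so a lost call does not by itself show that 1 array drives the change. The PHM8 fall at 90 min was lost without WT replicate 1, 2 or 3 (log2 -2.09 to -1.22, adjusted p up to 0.89), and the PHO84 rise at 20 min without WT replicate 1, 2 or 3 (log2 1.78 to 2.60, adjusted p up to 0.26). The PHO84 call at 10 min was lost without WT replicate 1, 2 or 3 (log2 2.05 to 2.31, adjusted p up to 0.32), the PHO89 call without WT replicate 1, 2 or 3 (log2 1.96 to 2.60, adjusted p up to 0.54) and the VTC3 call without WT replicate 1 or 3 (log2 0.88 to 1.26, adjusted p up to 0.25). The PHO84 call at 30 min was lost without WT replicate 2 or 3 (log2 2.16 to 3.03, adjusted p up to 0.14).

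**Figure D1:**
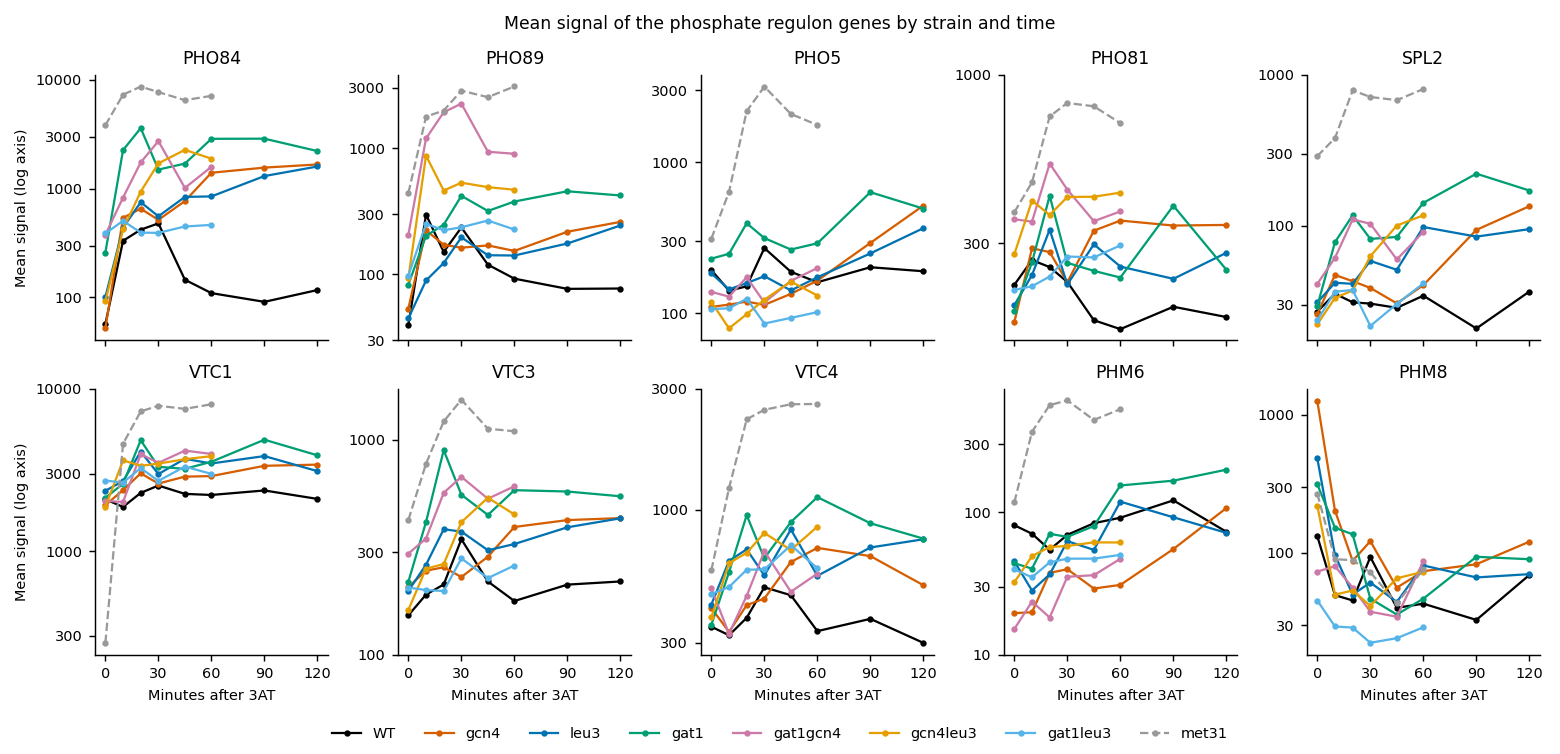
Mean signal (log axis) of each of the 10 genes against minutes after 3AT, 1 line per strain; each point is the mean of the 2 or 3 arrays of a group, and the dashed met31 line has 1 array per time. WT (black) returned towards its 0 min level for PHO84 after 30 min while the single deletions ended at means of 1599 to 2217 at 120 min, and PHM8 ran the other way, starting high in gcn4 and falling.

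In the single deletions the rise of PHO84 was called up to 120 min. In gcn4 its signal was 40.7, 64.6 and 50.9 at 0 min, 645, 629 and 346 after 10 min, 945, 799 and 565 after 45 min, 2169 and 632 after 60 min (2 arrays), 1679, 1813 and 1194 after 90 min and 2187, 2035 and 786 after 120 min. Every gcn4 array after 0 min lay above every gcn4 array at 0 min, and replicate 3 read lowest of the 3 at each time after 0 min that has 3 arrays. The rise was called at all 7 times, from log2 2.89 ± 0.59 at 30 min to 4.53 ± 0.59 at 90 min (adjusted p = 1.5e-08). Its calls at 10, 30 and 60 min were lost without gcn4 replicate 1, and those at the other 4 times held in every fit without 1 replicate. In leu3 the signal went from 121, 106 and 76.1 at 0 min through 605, 621 and 445 at 30 min and 1232, 722 and 593 at 60 min to 1845, 2048 and 904 at 120 min. The leu3 rise was called from 20 min on and measured 3.72 ± 0.59 at 120 min (adjusted p = 6.6e-06). Its calls at 60, 90 and 120 min held in every fit without 1 replicate, and those at 20, 30 and 45 min did not (adjusted p up to 0.43).

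In gat1 PHO84 was high from 10 min on. It read 240.1, 196 and 341 at 0 min, 2933, 2128 and 1733 after 10 min, 4374 and 2823 after 20 min (2 arrays), 1352, 1426 and 1715 after 30 min, 3117, 3027 and 2475 after 60 min and 2409, 2012 and 2229 after 120 min. All 3 arrays at 10 min were above every WT array of the series, whose range was 49.4 to 813. The change from 0 min was called at all 7 times, between log2 2.49 ± 0.59 at 30 min and 3.72 ± 0.66 at 20 min. At 60 and 90 min it held in every fit without 1 replicate, and at the other 5 times it was lost without gat1 replicate 1 or 2 (adjusted p up to 0.15). At 60 min, against 86.8, 131 and 111 in WT, gat1 exceeded WT by 4.53 ± 0.59 (adjusted p = 4.1e-08), gcn4 by 3.26 ± 0.66 (adjusted p = 0.0029) and leu3 by 2.73 ± 0.59 (adjusted p = 0.0045). At 120 min these differences were 4.17 ± 0.59, 3.64 ± 0.59 and 3.63 ± 0.59 in the same order, with adjusted p values of 8.3e-07, 1.6e-05 and 1.4e-05. The gcn4 difference at 60 min, which rests on 2 arrays, lost its call without gcn4 replicate 1 (log2 2.38 to 4.14, adjusted p up to 0.92), and the leu3 one without WT replicate 1 (log2 2.43 to 2.95, adjusted p up to 0.057). At 90 and 120 min the PHO84 difference of each single deletion from WT was called in all 6 fits that left out 1 replicate.

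**Figure D2:**
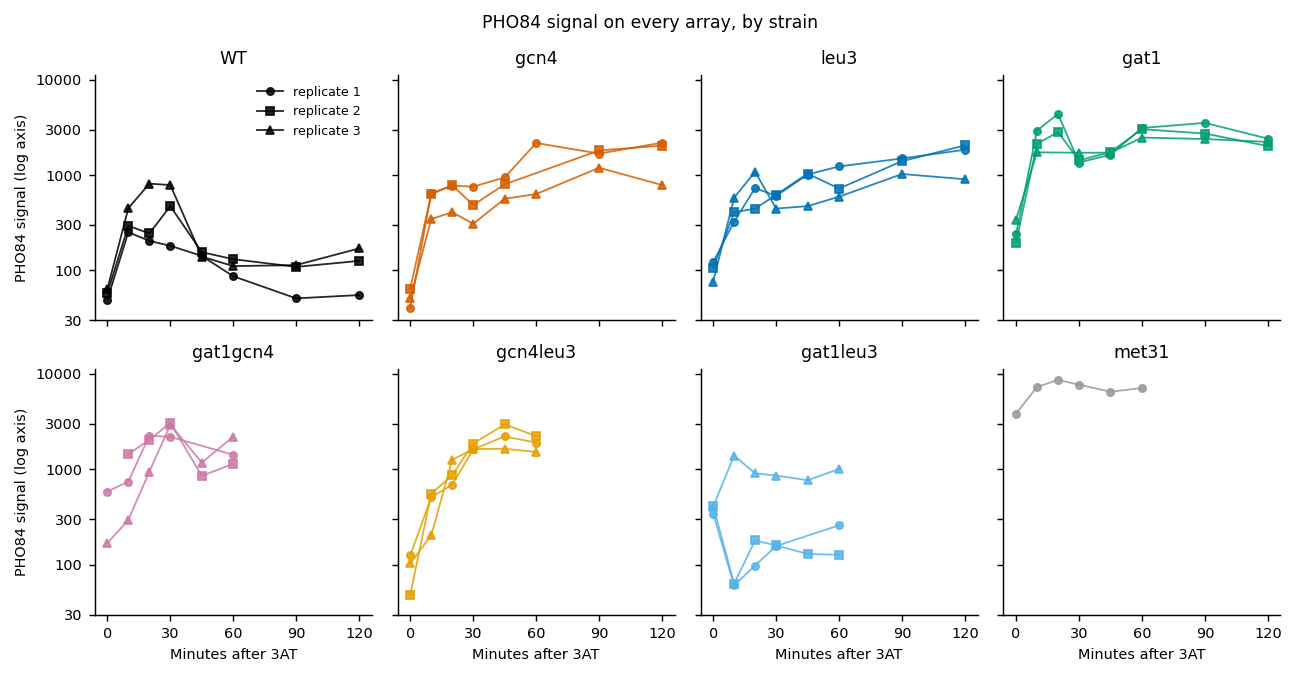
PHO84 signal (log axis) on every array against minutes after 3AT, 1 panel per strain and 1 marker shape per replicate number. The 3 WT replicates peak by 30 min and lie between 55.1 and 170 at 120 min, the gcn4, leu3 and gat1 replicates stay high, and replicates 1 and 2 of gat1leu3 fall at 10 min while replicate 3 rises.

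Among the double deletions PHO84 rose in gcn4leu3 and gat1gcn4 and did not pass the test at any time in gat1leu3. In gcn4leu3 it read 125, 48.5 and 103 at 0 min, 692, 867 and 1260.4 after 20 min, 2215, 2962 and 1643 after 45 min and 1905, 2235 and 1521 after 60 min. This was a log2 rise of 4.19 ± 0.59 at 60 min (adjusted p = 6.9e-07), called at all 5 times. The calls from 30 to 60 min held in every fit without 1 replicate, the 20 min call was lost without gcn4leu3 replicate 2, and the 10 min call without gcn4leu3 replicate 1, 2 or 3 (log2 1.39 to 2.52, adjusted p up to 0.59), with a pseudocount of 64 and without the arrays against their label. In gat1gcn4 the 2 arrays at 0 min already differed, at 585 and 168, and the 3 arrays at 30 min read 2191, 3084 and 2933 (log2 3.03 ± 0.66, adjusted p = 0.0013). That call was lost without gat1gcn4 replicate 3 (log2 2.12 to 4.04, adjusted p up to 0.77). The 60 min rise in gat1gcn4 (log2 2.22 ± 0.66, adjusted p = 0.046) was lost without gat1gcn4 replicate 2 or 3 (log2 1.10 to 3.12, adjusted p up to 0.69).

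PHO84 in gat1leu3 split by replicate number. At 0 min the arrays agreed, at 343, 414 and 406. After 10 min they read 60.6, 63.3 and 1397, after 20 min 98, 179 and 906, after 30 min 157, 159 and 861 and after 60 min 259, 127 and 1008, and after 45 min replicates 2 and 3 read 129.7 and 769. Replicates 1 and 2 were thus below their 0 min signal at every time sampled, and replicate 3 was above its own at every time. PHO89 split the same way at 10 min, with 24.9, 44.2 and 685 after 73.6, 87.8 and 132 at 0 min, and so did VTC4, with 265, 334 and 889.6 after 294, 599 and 504. None of the 10 members changed over time in gat1leu3 by the F-test (5.67% of all genes did), 0 had an unadjusted p under 0.05 at any single time, and without replicate 3 the count was 1. The cause of the split was not tested.

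Among the replicated strains PHO89 had its highest signals in gat1gcn4. It read 299.5 and 112 at 0 min (2 arrays), 1356, 2089 and 132 after 10 min, 2177, 3424 and 167 after 20 min, 2603, 3123 and 1025 after 30 min and 901, 1161 and 643 after 60 min. Replicates 1 and 2 were far above replicate 3 until 30 min. Even with that spread PHO89 was called higher than in WT at 20, 30, 45 and 60 min, by log2 3.18 ± 0.63 at 30 min (adjusted p = 0.00021) and 3.11 ± 0.63 at 60 min. In gcn4leu3 PHO89 rose at 10 min from 89.7, 58.4 and 133 to 1114, 1124 and 374 (log2 2.91 ± 0.63, adjusted p = 0.0043). In gat1 it rose from 69.8, 53.4 and 126 to 486, 335 and 544 at 90 min (log2 2.29 ± 0.63, adjusted p = 0.043). In gcn4 and leu3 it reached 283, 359.5 and 139.5 and 271, 196 and 265 at 120 min, rises of 1.95 ± 0.63 and 2.31 ± 0.63 with adjusted p values of 0.05 and 0.041. Of the 17 called values of PHO89, 3 held in every fit that left out 1 replicate, all of them gat1gcn4 against WT. The calls within a strain are the weaker ones: the gat1 rise at 90 min was lost without gat1 replicate 1, 2 or 3 (log2 2.16 to 2.44, adjusted p up to 0.42).

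PHO5 encodes the main secreted acid phosphatase, which frees phosphate from organic compounds outside the cell. It rose late in gat1 and gcn4. In gat1 the signal was 192, 266 and 231 at 0 min, 361, 301 and 207 after 60 min and 722, 746 and 429 after 90 min (log2 1.37 ± 0.31, adjusted p = 0.007), a call lost without gat1 replicate 1 or 2 (log2 1.14 to 1.63, adjusted p up to 0.35). In gcn4 it was 89.2, 140.4 and 100.3 at 0 min, 352, 338 and 184 after 90 min and 543, 884 and 120.3 after 120 min (log2 1.72 ± 0.31, adjusted p = 6.8e-05). Replicate 3 of gcn4, from the unscaled arrays, read 120.3 at 120 min after 100.3 at 0 min, and the 120 min call was lost without gcn4 replicate 1 or 2 (log2 1.32 to 2.47, adjusted p up to 0.075). In leu3 the F-test passed (adjusted p = 0.023) with 397, 312 and 387 at 120 min after 177, 222 and 151 at 0 min. In WT the arrays ran from 112 to 325 over all times, and no single time passed the test.

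At 30 min PHO5 was lower than in WT in 4 deletion strains. WT read 266, 325 and 218, gcn4 83.9, 146 and 110.0, gat1gcn4 93.2, 84.3 and 175, gcn4leu3 130.5, 98.1 and 139 and gat1leu3 81.8, 85 and 89.1. None of these deletion arrays reached the WT range. Before 3AT these strains also averaged below WT (193), at 110 in gcn4, 138 in gat1gcn4, 118 in gcn4leu3 and 106 in gat1leu3. None of these 0 min differences was called. The change of PHO5 from 0 to 30 min was not called different from that in WT in any of the 4 strains. The log2 differences from WT at 30 min were -1.15 ± 0.31 in gcn4 (adjusted p = 0.022), -1.14 ± 0.31 in gat1gcn4, -1.04 ± 0.31 in gcn4leu3 and -1.48 ± 0.31 in gat1leu3 (adjusted p = 0.0012). These 4 comparisons share the WT arrays, and WT replicate 2 at 30 min is one of the arrays that went against its label. Without the arrays against their label 1 of the 4 calls remained, in gat1leu3, which was also called in all 6 fits without 1 replicate. The other 3 were each lost without WT replicate 2 among others; the gcn4 call was lost without WT replicate 1 or 2 or gcn4 replicate 1 (log2 -1.33 to -0.98, adjusted p up to 0.22), the gat1gcn4 call without WT replicate 2 or gat1gcn4 replicate 1 or 2 (log2 -1.43 to -0.97, adjusted p up to 0.073) and the gcn4leu3 call without WT replicate 1 or 2 or gcn4leu3 replicate 1, 2 or 3 (log2 -1.17 to -0.90, adjusted p up to 0.19).

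PHO81, the inhibitor of the Pho80-Pho85 kinase, moved within a narrow range. In gcn4 it read 189.6, 111 and 213 at 0 min, 299.7, 301 and 384 after 45 min, 348 and 358 after 60 min and 368, 268 and 390.4 after 120 min. All gcn4 arrays at these 3 later times lay above all gcn4 arrays at 0 min, and the rise was called at 5 of 7 times, reaching 1.02 ± 0.27 at 60 min (adjusted p = 0.02). In gat1 it was called at 20 min (452 and 389.9 after 159, 212 and 182 at 0 min, log2 1.13 ± 0.27, adjusted p = 0.0078) and at 90 min. In WT it read 239, 225 and 205 at 0 min and 167, 122 and 199 at 60 min, a difference that did not pass the test (adjusted p = 0.82). At 60 min PHO81 was higher than in WT in all 3 double deletions, by 1.35 ± 0.24 in gcn4leu3 (adjusted p = 5.3e-05), 1.15 ± 0.24 in gat1gcn4 (adjusted p = 0.00052) and 0.78 ± 0.24 in gat1leu3 (adjusted p = 0.049). The first 2 held in all 6 fits without 1 replicate and the gat1leu3 call was lost without WT replicate 1 or 2 or gat1leu3 replicate 1 or 3 (log2 0.59 to 1.02, adjusted p up to 0.29). None of the 5 gcn4 and 2 gat1 rises held in every fit without 1 replicate. The gcn4 rise at 60 min, on 2 arrays, was lost without gcn4 replicate 1, 2 or 3 (log2 0.77 to 1.17, adjusted p up to 0.53).

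SPL2 encodes a small protein that lowers low-affinity phosphate uptake when phosphate is scarce. Before 3AT its signal was 42.3 or lower in every replicated strain, near the 20th percentile of the arrays' probe sets (13.0 to 31.4), with 21.4, 19.3 and 40.2 in WT and 30.0, 36.1 and 22.1 in gat1. In gat1 it read 116 and 118 after 20 min, 202, 107 and 115 after 60 min, 252, 212 and 199 after 90 min and 177, 155 and 180.3 after 120 min. Every one of these arrays was above the highest WT array of the series, at 61.1. The rise at 90 min was 2.39 ± 0.37 (adjusted p = 2.6e-05) and the difference from WT 2.70 ± 0.37 (adjusted p = 2.2e-07). Both held in every fit without 1 replicate. In gcn4 SPL2 was called at 90 and 120 min, with 179.7, 177 and 47 at 120 min (log2 1.70 ± 0.37, adjusted p = 0.0016, lost without gcn4 replicate 1 or 2 (log2 1.47 to 2.04, adjusted p up to 0.15)). In gcn4leu3 it read 131, 144.6 and 75.9 at 60 min after 26.6, 13.8 and 26.4 at 0 min (log2 1.78 ± 0.37, adjusted p = 0.0022, lost without gcn4leu3 replicate 1 or 2 (log2 1.45 to 2.11, adjusted p up to 0.22)).

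The 3 VTC members differed in how firmly they changed. VTC3 followed PHO84 most closely. In gat1 it read 220.4, 219 and 217 at 0 min, 809 and 981 after 20 min and 740.3, 599.8 and 408 after 60 min, with no overlap between 0 min and the later arrays. Its rise was 1.95 ± 0.29 at 20 min (adjusted p = 2.6e-06) and it was called at every time from 20 to 120 min, of which the 20 min call held in every fit without 1 replicate and the other 5 did not (adjusted p up to 0.25). In gcn4leu3 VTC3 rose from 169.6, 176 and 139 at 0 min to 443, 689.9 and 480.1 at 45 min (log2 1.62 ± 0.26, adjusted p = 2.5e-05). In gcn4 and leu3 it was called at 90 and 120 min, by 1.03 ± 0.26 and 1.03 ± 0.26 at 120 min, and these calls were lost without gcn4 replicate 1 or 2 (log2 0.90 to 1.16, adjusted p up to 0.18) and without leu3 replicate 1 or 3 (log2 0.74 to 1.51, adjusted p up to 0.43).

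VTC1, the small membrane subunit of the complex, rose in gcn4leu3 and, at some times, in gat1, gcn4 and gat1gcn4. In gcn4leu3 it read 1481, 1196 and 2948 at 0 min and 3959, 3451 and 4141 at 60 min, was called at all 5 times and rose by 1.14 ± 0.25 at 60 min (adjusted p = 0.0033). Replicate 3 began higher than replicates 1 and 2, and the 60 min call was lost without gcn4leu3 replicate 1 or 2 (log2 0.95 to 1.46, adjusted p up to 0.22). In gat1 VTC1 rose from 1866, 1935 and 2591 at 0 min to 5198, 4690.4 and 4699 at 90 min (log2 1.20 ± 0.25, adjusted p = 0.002, lost without gat1 replicate 1 or 2 (log2 1.06 to 1.37, adjusted p up to 0.18)). Of its 17 called values 0 held in every fit that left out 1 replicate.

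VTC4, the subunit that carries the polyphosphate polymerase, was called at a single time within a strain. In gat1 it read 433, 185 and 437 at 0 min and 1014, 1499 and 858 at 60 min (log2 1.69 ± 0.42, adjusted p = 0.014), and the call was lost without gat1 replicate 2 (log2 1.07 to 2.05, adjusted p up to 0.5). Against WT it was called in gcn4leu3 at 60 min, where it read 756, 806 and 1016 and WT 346, 417 and 234 (log2 1.35 ± 0.42, adjusted p = 0.046). That call was lost without WT replicate 1, 2 or 3 or gcn4leu3 replicate 1, 2 or 3 (log2 1.13 to 1.53, adjusted p up to 0.22). The other probe set of VTC4 gave both calls as well. The spread of VTC4 between replicates was wide, as in leu3 at 120 min with 454, 1349 and 495.

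PHM6 is a phosphate-regulated gene whose product has no known function. It was lower before 3AT in gcn4 and gat1gcn4 than in WT. WT read 96.2, 91.3 and 55.7, gcn4 35.9, 7.67 and 15.2 and gat1gcn4 9.05 and 21.3 (2 arrays). The differences were -1.50 ± 0.37 (adjusted p = 0.0046) and -1.64 ± 0.42 (adjusted p = 0.0068), while gcn4leu3, at 32.9, 29.8 and 34.1, was below every WT array without passing the test (adjusted p = 0.15). The means of leu3 (45.2), gat1 (43.9) and gat1leu3 (39.7) were also below that of WT (81.1) without being called. The gcn4 difference was lost without gcn4 replicate 2 (log2 -1.81 to -1.24, adjusted p up to 0.12) and the gat1gcn4 one without gat1gcn4 replicate 1 (log2 -1.93 to -1.35, adjusted p up to 0.26). After 3AT PHM6 rose late in gat1, to 251, 202 and 144 at 120 min from 38.3, 44.2 and 49.1 (log2 1.82 ± 0.37, adjusted p = 0.0022, lost without gat1 replicate 1 or 2 (log2 1.57 to 2.07, adjusted p up to 0.2)). In gcn4 it reached 123, 160.5 and 38 at 120 min (log2 1.70 ± 0.37, adjusted p = 0.0016, lost without gcn4 replicate 2 (log2 1.10 to 2.16, adjusted p up to 0.26)). In WT, which started higher, it read 85.3, 56.7 and 76.8 at 120 min.

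PHM8 was called lower after 3AT, never higher, at the times where it passed the test. Before 3AT it was highest in gcn4, at 1757, 1754 and 273, against 150.1, 153 and 94.5 in WT (log2 2.73 ± 0.45, adjusted p = 3.8e-06). Replicates 1 and 2 of gcn4 were over 6 times replicate 3, yet the difference was called in all 6 fits without 1 replicate, from 2.29 to 3.60. In leu3 the 3 arrays at 0 min read 436, 563 and 457, above every WT array but short of the threshold (log2 1.77 ± 0.45, adjusted p = 0.058). In gat1leu3 PHM8 was lower than in WT at 2.73, 25.9 and 107, with an overlap between the groups (log2 -1.67 ± 0.45, adjusted p = 0.0097), and this call was lost without WT replicate 1 or 2 or gat1leu3 replicate 1 or 2 (log2 -2.38 to -1.02, adjusted p up to 0.27).

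After 3AT PHM8 fell in each single deletion and in gcn4leu3. In gcn4 it read 69.3, 132 and 61.2 after 20 min, 58.6, 68.2 and 41.5 after 45 min and 162, 140.3 and 60.2 after 120 min, a log2 fall called at all 7 times (log2 -3.76 ± 0.45 at 45 min, adjusted p = 6.8e-10). In leu3 the fall was also called at all 7 times, with 54.3, 56.9 and 21.5 at 45 min (log2 -3.11 ± 0.45, adjusted p = 1.9e-06). In gat1 it was called from 30 to 60 min and in gcn4leu3 from 10 to 30 min, at log2 -2.55 ± 0.45 at 45 min and -1.94 ± 0.45 at 30 min. The gcn4leu3 fall at 30 min was lost without gcn4leu3 replicate 1 or 2 (log2 -2.22 to -1.72, adjusted p up to 0.33). At 60 min the arrays of WT, gcn4, leu3, gat1 and gcn4leu3 lay between 28.7 and 113, where at 0 min they had lain between 94.3 and 1757.

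**Figure D3:**
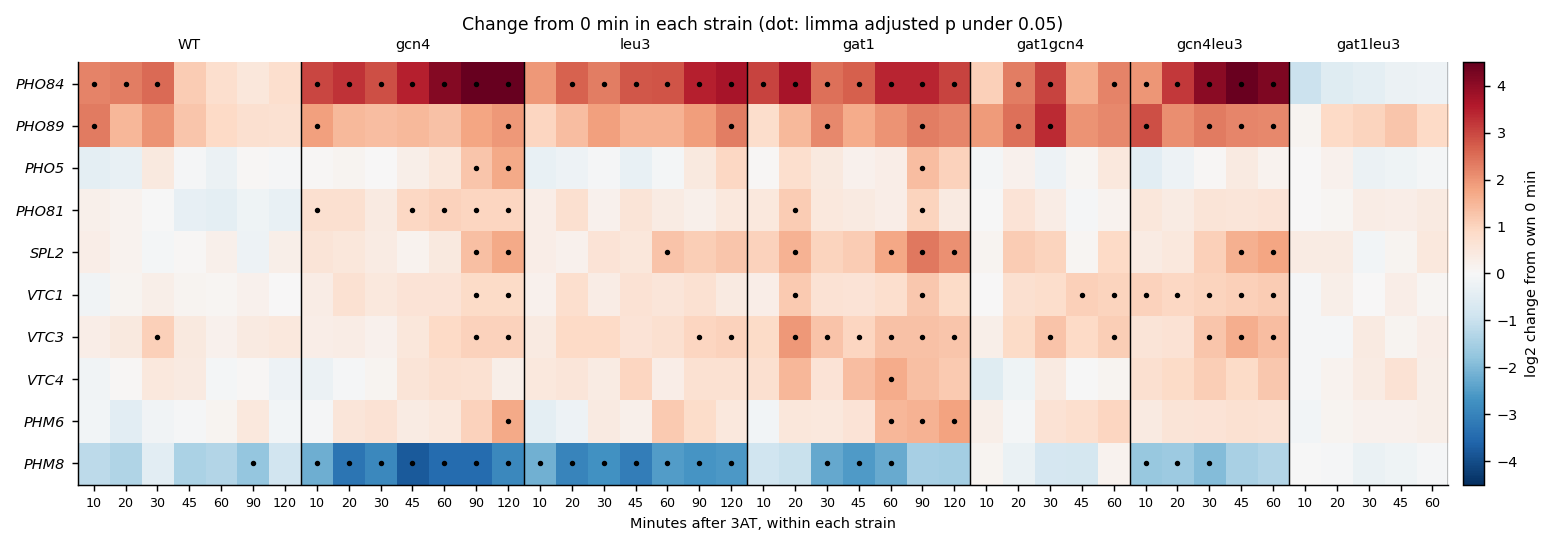
Log2 change of each gene (rows) from the same strain's 0 min arrays at each later time (columns, grouped by strain); red is higher, blue lower, and a dot marks a limma adjusted p under 0.05. PHO84 is red and dotted in most columns outside WT and gat1leu3, the rows from PHO5 to PHM6 are dotted mainly at 90 and 120 min or in gat1 and gcn4leu3, and the dotted PHM8 cells, in WT, the single deletions and gcn4leu3, are blue.

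Counted over the 10 members, most changed over time in gat1, though the size of its lead over gcn4 depended on the fit. By the F-test over time 10 of 10 members changed in gat1 (10.4% of all genes), 7 in gcn4 (11.2%), 6 in leu3 (4.81%), 6 in gcn4leu3 (5.29%) and 4 in gat1gcn4 (5.01%). In gcn4 these were PHO84, PHO5, PHO81, SPL2, VTC3, PHM6 and PHM8, and in leu3 the same genes but for PHO81. In gcn4leu3 they were PHO84, PHO89, SPL2, VTC1, VTC3 and PHM8, and in gat1gcn4 PHO84, PHO89, VTC1 and VTC3. Without 1 replicate the count ran from 5 to 10 in gat1, 3 to 7 in gcn4, 2 to 5 in leu3, 2 to 6 in gcn4leu3 and 3 to 4 in gat1gcn4. The lowest counts were reached without replicate 1 or 2 in gat1, gcn4 and gcn4leu3, without replicate 1 or 3 in leu3 and without replicate 1 or 3 in gat1gcn4.

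The number of members called higher than at 0 min differed between times. At 90 min in gat1 8 members were higher than at 0 min (0.446% of all genes), all but VTC4 and PHM8, with a median log2 change of 1.36 over the 10 members against -0.09 over all genes. At 20 min in gat1 there were 5 (0.784%), namely PHO84, PHO81, SPL2, VTC1 and VTC3, and at 120 min 4 (0.285%). In gcn4 3 members were higher at 10 min (4.87%), 2 at 60 min (0.624%) and 8 at 120 min (1.73%), with a median of 1.37 against -0.02. In leu3 3 were higher at 120 min (0.552%), in gat1gcn4 3 at 30 min (1.68%) and 3 at 60 min (1.8%), and in gcn4leu3 5 at 60 min (0.802%). Few of these rises held in every fit without 1 replicate: PHO84 and SPL2 in gat1 at 90 min, VTC3 there at 20 min, SPL2 there at 120 min, PHO84 in gcn4 and in leu3 at 120 min and PHO84 and VTC3 in gcn4leu3 at 60 min.

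Before 3AT few members differed from WT. The count was 2 of 10 in gcn4 (4.85% of all genes called in either direction), 2 in gat1gcn4 (4.38%) and 2 in gat1leu3 (6.68%). It was 0 in leu3 (0.178%), gat1 (0.0891%) and gcn4leu3 (3.37%), where limma gave 1, 2 and 2 members an unadjusted p under 0.05. The share of all genes at that unadjusted threshold was not counted. PHO84 was the member raised in gat1leu3 (log2 2.47 ± 0.59, adjusted p = 0.0027) and in gat1gcn4 (log2 2.19 ± 0.66, adjusted p = 0.031). In gat1 all 3 arrays were above all WT arrays, but the adjusted p was 0.61 (log2 1.88 ± 0.59). The gat1leu3 call held in all 6 fits without 1 replicate, and the gat1gcn4 call was lost without WT replicate 1, 2 or 3 or gat1gcn4 replicate 1 (log2 1.34 to 3.05, adjusted p up to 0.78).

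After 3AT more members stood above WT. At 90 min in gat1 5 of 10 did (0.107% of all genes), namely PHO84, PHO5, SPL2, VTC1 and VTC3, and at 20 min the same count, also PHO84, PHO5, SPL2, VTC1 and VTC3 (0.606%). In every fit without 1 replicate 2 of these calls held at 90 min, PHO84 and SPL2, and 1 at 20 min, VTC3. At 60 min in gcn4leu3 7 did (2.44%), all but PHO5, PHM6 and PHM8, and in gat1gcn4 5 (4.71%), namely PHO84, PHO89, PHO81, VTC1 and VTC3. In gat1leu3 only PHO81 did at 60 min (0.802%). At 120 min the count was 3 in gcn4 (0.535%), PHO84, PHO81 and SPL2, and 1 in leu3, PHO84 (0.303%). Of these calls 3 of 7 held in every such fit in gcn4leu3 (PHO84, PHO81 and VTC3), 4 of 5 in gat1gcn4 (all but VTC1), 0 of 1 in gat1leu3 and, at 120 min, PHO84 alone in gcn4 and in leu3. The median of all genes was itself shifted by up to 0.17 in these comparisons with WT (gcn4leu3 at 45 min), against a median of 0.96 over the members there.

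**Figure D4:**
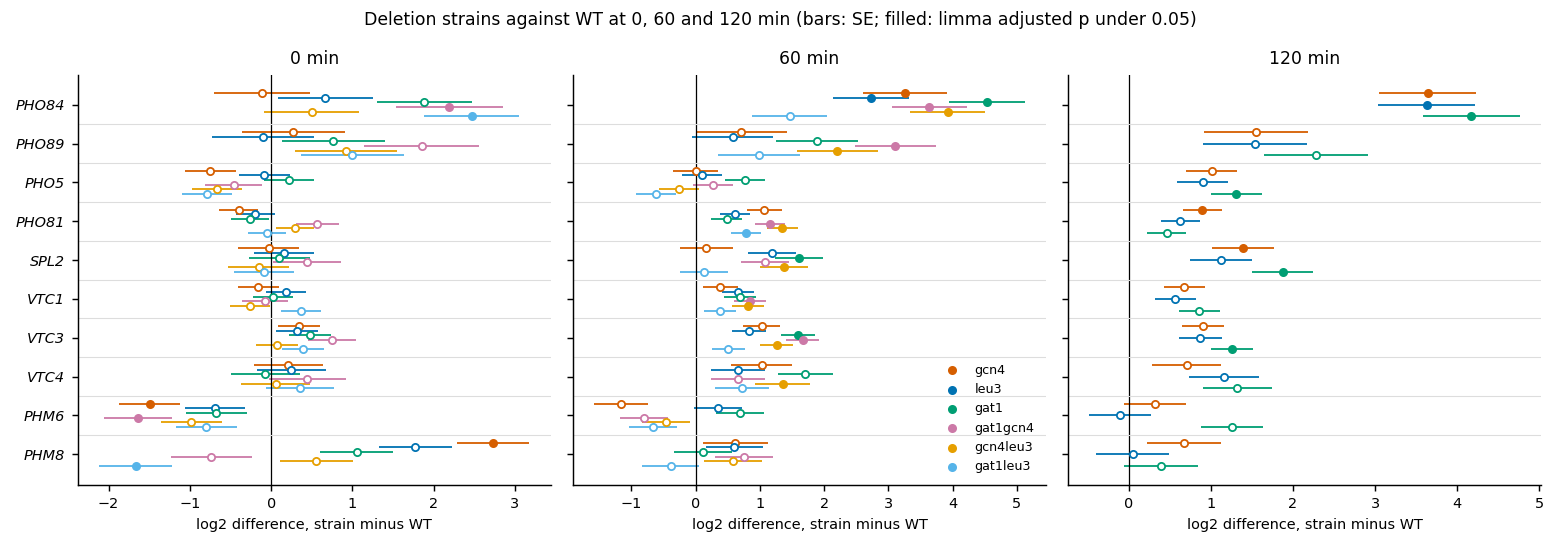
Log2 difference between each deletion strain and WT for the 10 genes at 0, 60 and 120 min (double deletions have no 120 min arrays); bars are SE and filled points have a limma adjusted p under 0.05. At 0 min the filled points are 2 each of PHO84, PHM6 and PHM8; at 60 min PHO84 reaches 4.53 in gat1, and gat1leu3 has 1 filled point, PHO81.

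Whether a strain's response differs from that of WT was tested on the difference of the 2 changes, which has a larger error. By the F-test over shared times 3 members differed in gcn4 (PHO84, PHO5 and PHO81, 1.43% of all genes), 1 in leu3 (PHO84, 0.659%) and 1 in gcn4leu3 (PHO84, 0.998%). Without WT replicate 1 or 2 the count fell to 1 in gcn4 and 0 in leu3, and in gcn4leu3 it stayed 1. By limma's F-test with all arrays the count was 0 in gat1 (0.499%), gat1gcn4 (2.67%) and gat1leu3 (0.374%), where 9, 2 and 2 members had an unadjusted p under 0.05. These percentages are at the adjusted threshold, and the share of all genes at the unadjusted one was not counted. For PHO84 the change in gcn4 exceeded that in WT by 4.03 ± 0.83 at 90 min (adjusted p = 0.024) and 3.75 ± 0.83 at 120 min, and in gcn4leu3 by 3.42 ± 0.83 at 60 min (adjusted p = 0.042). In gat1leu3 it was below that in WT at 10 min, by -3.19 ± 0.83 (adjusted p = 0.03). SPL2 in gat1 exceeded WT by 2.61 ± 0.53 at 90 min (adjusted p = 0.017), and PHM8 fell further in gcn4 than in WT at 30 min, by -2.41 ± 0.63 (adjusted p = 0.041). The gcn4 difference of PHO84 at 90 min was lost without WT replicate 1, 2 or 3 or gcn4 replicate 1 or 2 (log2 3.80 to 4.21, adjusted p up to 0.32), that at 120 min without WT replicate 1, 2 or 3 or gcn4 replicate 1 or 2 (log2 3.36 to 4.21, adjusted p up to 0.6) and the gcn4leu3 one without WT replicate 1, 2 or 3 or gcn4leu3 replicate 1, 2 or 3 (log2 2.96 to 3.67, adjusted p up to 0.67). The gat1leu3 difference was lost without WT replicate 1, 2 or 3 or gat1leu3 replicate 1 or 2 (log2 -4.55 to -2.46, adjusted p up to 0.48), that of SPL2 without WT replicate 2 or 3 or gat1 replicate 1, 2 or 3 (log2 2.42 to 2.86, adjusted p up to 0.28) and that of PHM8 without WT replicate 1 or 2 or gcn4 replicate 1 or 2 (log2 -2.95 to -2.0, adjusted p up to 0.52).

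The count of 0 for gat1 depended on the settings. It was 3 with a pseudocount of 64. In a fit of the scaled arrays alone, which holds the same WT and gat1 arrays and leaves out all unscaled ones, 8 members differed between gat1 and WT in their time course (4.79% of all genes), all but PHO81 and VTC4. PHO84 had an adjusted p of 3.1e-06, PHO89 0.002 and SPL2 0.002 there, against 0.11, 0.37 and 0.068 with all arrays. The median SE of the 60 min difference over all genes was 0.399 in that fit and 0.475 with all arrays. For gcn4 and leu3 that fit leaves out replicate 3, so gcn4 at 60 min keeps replicate 1 alone. In the same fit 7 members differed in gcn4 (11.8%), all but PHO89, VTC1 and VTC4, and 3 in leu3 (10.6%), PHO84, PHO89 and PHM8.

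Setting each double deletion against its single deletions was added after values had been seen. The calls of this paragraph were not checked without single replicates or under the other alternative settings. At 60 min PHO84 in gat1leu3 was lower than in gat1 by -3.07 ± 0.59 (adjusted p = 0.00038), and 5 members were lower in all (1.8% of all genes): PHO84, PHO5, SPL2, VTC3 and PHM6. For SPL2 the arrays at 60 min read 25.2, 31.2 and 67.9 in gat1leu3 and 202, 107 and 115 in gat1. PHO89 in gat1gcn4 was higher at 30 min than in gat1 (log2 2.27 ± 0.63, adjusted p = 0.017) and than in gcn4 (log2 3.54 ± 0.63, adjusted p = 0.00017). PHM8 before 3AT was lower in gat1gcn4 than in gcn4 (log2 -3.47 ± 0.50, adjusted p = 2.3e-07), in gcn4leu3 than in gcn4 (log2 -2.17 ± 0.45, adjusted p = 0.0016) and in gat1leu3 than in leu3 (log2 -3.44 ± 0.45, adjusted p = 1.7e-08). Double deletion arrays are all unscaled, so deposited scale cannot be told apart from strain in comparisons with gat1. In those with gcn4 or leu3, where replicate 3 alone is unscaled, its part was not tested. For PHM8 at 0 min that unscaled gcn4 array read 273, inside the gcn4leu3 range (272, 294 and 94.3), and the difference came from the 2 scaled gcn4 arrays. It was above both gat1gcn4 arrays (54.9 and 91.8), and the unscaled leu3 array, at 457, was above all 3 of gat1leu3.

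The met31 strain had 1 array per time and no test. At 60 min 9 of the 10 members read higher in met31 than on any other array of that time, all but PHM8, and at 0 min 5 did. The share of all genes that did so was not counted, so these counts have no background to be read against. PHO84 read 3829 at 0 min, when no array of another strain exceeded 585, and ran from 6509 to 8670 after it. PHO5 read 311 at 0 min, 635 at 10 min, 2175 at 20 min and 3163 at 30 min, while the highest PHO5 array of any other strain was 884. PHO89 rose from 440.3 to 3076 at 60 min, SPL2 from 288 to 802, VTC3 from 424 to 1096 and PHM6 from 117 to 528. VTC1 was the exception at 0 min, at 272 against 2087, 1847 and 2327 in WT, and read 4596 at 10 min. PHM8 ran from 269 at 0 min to 76.3 at 60 min. Each of these values rests on 1 array from the unscaled set and has no replicate check.

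A list of 30 other genes of phosphate uptake, storage and control was set beside the members. PHO11 and PHO12, acid phosphatases close in sequence to PHO5, had no probe set of 1 gene, which left 28 tested. By the F-test over time 2 of the 28 changed in WT, 2 in gcn4, 1 in leu3, 1 in gat1, 3 in gat1gcn4, 0 in gcn4leu3 and 2 in gat1leu3, to be read beside the shares of all genes given above. At 90 min in gat1 0 of the 28 rose and 0 fell, with a median log2 change of -0.12 against 1.36 over the members. At 120 min in gcn4 0 rose and 1 fell (median 0.01), and at 60 min in gcn4leu3 0 rose and 0 fell (median 0.05). Against WT 9.36%, 16.6% and 12.3% of all genes were called in gat1gcn4 at 10, 20 and 30 min. In gcn4leu3 at 20 min that share was 7.5%. At 20 min in gat1gcn4 4 of the 28 were called higher than in WT and 1 lower. The calls of these related genes were not checked without single replicates.

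Of that list PHO87, PHO86, GIT1 and SND3 were called at 0 single times within a strain or against WT. PHO91, a vacuolar phosphate transporter, was higher than in WT at 20 min in gcn4leu3 (log2 1.11 ± 0.25, adjusted p = 0.0016), in gcn4 and in gat1gcn4. PHO90, a low-affinity transporter, was called in gat1gcn4 at 10, 20 and 30 min, but its 2 arrays at 0 min averaged 1708 ± 2390.5 (SD) and the groups overlapped. The regulators PHO2, PHO92 and VIP1 were called at 0 such times. PHO4, the pathway's transcription factor, was lower than in WT in gat1gcn4 at 20 min (log2 -2.04 ± 0.53, adjusted p = 0.0032) and nowhere else against WT or over time. PHO80, the cyclin, was higher than in WT in gat1gcn4 at 10 and 20 min (log2 1.08 ± 0.30 at 10 min, adjusted p = 0.01). PHO85, the kinase, fell in gcn4 at 10 min (log2 -0.86 ± 0.27) and was lower than in WT in gat1leu3 before 3AT (log2 -1.14 ± 0.27, adjusted p = 0.002). KCS1, an inositol pyrophosphate kinase, and PHO23, a histone deacetylase subunit, were higher than in WT at 20 min, in gat1gcn4 (log2 0.87 ± 0.26) and in gcn4leu3 (log2 1.0 ± 0.33).

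In polyphosphate storage VTC2, PPN1 and PPN2 were called at 0 single times within a strain or against WT. VTC5, an accessory subunit of the VTC complex, fell at 10 min in WT (245 ± 42.1 to 111 ± 35.5, SD, n = 3 each; log2 -1.06 ± 0.28, adjusted p = 0.03) and in gat1 (log2 -0.96 ± 0.28). At 30 min it was lower than in WT in leu3, gat1, gat1gcn4 and gat1leu3, by log2 -1.26 ± 0.28 in leu3 (adjusted p = 0.0053). These comparisons share the WT arrays at 30 min, of which replicate 2 went against its label, and the VTC5 calls were not checked without it. PPX1, a polyphosphatase, rose in gcn4 at 10 min (log2 0.90 ± 0.29), and DDP1, a polyphosphate phosphatase, was lower than in WT in gat1gcn4 at 30 min (log2 -1.01 ± 0.32). GPP2, a glycerol phosphatase, rose in WT at 10 min from 151 ± 38.9 to 787 ± 124 (SD, n = 3 each; log2 2.28 ± 0.63, adjusted p = 0.04). Like PHM8, GPP2 was higher in gcn4 than in WT before 3AT (log2 2.67 ± 0.63, adjusted p = 0.0023) and fell there by 120 min. PHO8, the vacuolar alkaline phosphatase, was lower than in WT at 20 min in gcn4 (log2 -1.30 ± 0.40) and gcn4leu3, and fell in gat1leu3 at 60 min with overlapping arrays. PHO3, PHO13, GDE1, SYG1 and CTF19 were called at 0 such times, and PHM7 in gcn4 at 90 min (log2 -1.54 ± 0.42) and in gat1gcn4 against WT at 3 times.

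The genes most like each member were found from the Pearson correlation of group means over the 50 replicated groups, as a description over points that share strains and arrays. PHO84 was most like VTC3 (r = 0.91), SPL2 (0.84) and VTC1 (0.78), so its 3 nearest genes were all members. The same held for SPL2 (PHO84, VTC3 and VTC1, r = 0.84, 0.83 and 0.69), VTC1 (VTC4, PHO84 and VTC3, r = 0.78 each) and VTC3 (PHO84, SPL2 and VTC1, r = 0.91, 0.83 and 0.78). VTC4 had VTC1 (0.78), PHO84 (0.71) and VIP1 (0.71). PHO81 had GSC2 (0.79), MED2 (0.78) and PHO89 (0.76), and PHO89 had GSC2 (0.78), PHO81 (0.76) and YKL068W-A (0.74). Without the double deletions, over 32 groups, PHO81 was nearest to PHO84 (0.75). PHO89 was then nearest to PHO84 (0.84), VTC3 (0.76) and SPL2 (0.74). PHO5 was nearest to 3 genes listed under RNA gene names, YNCD0001W, YNCM0007C and YNCO0004C (r = 0.73, 0.73 and 0.71), and over the 32 groups of WT and the single deletions to SPL2 (0.77). PHM6 had DTD1 (0.70), RFC3 (0.69) and SEC53 (0.68). PHM8 had STP3 (0.80), COM2 (0.77) and TOS8 (0.75), and 0 members were among its 20 nearest genes, against 6 for PHO84 and 7 for SPL2.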

How the data were processed

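Biotin-labelled RNA was read on 151 single-colour arrays, and the authors summarised each probe set with MAS5, per the submitters' processing notes, giving an intensity on a linear scale. No version of MAS5 is stated there. Each deposited array was rescaled to a 2% trimmed mean of 500 because 78 arrays had a trimmed mean near 501 and 73 between 22.4 and 104. Of 9335 probe sets 6504 name 1 gene, 328 name several and 2503 name none in the annotation used; genes were named through RefSeq's yeast gene table. No sequence is printed.

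Genes with a signal above the array's 20th percentile of probe sets (13.0 to 31.4) in at least 2 of 3, or 1 of 2, arrays of any replicated group were kept (5611 of 5656). limma 3.58.1 in R 4.3.3 was fitted to log2(signal + 16), which understates changes of low signals, with 1 coefficient per group over the 50 groups of the 7 replicated strains (95 residual degrees of freedom; eBayes with trend). The number of arrays limits the precision. P-values are two-sided and Benjamini-Hochberg adjusted over all genes. The same code was tested on simulated data with known changes. The members, the list of 30 related genes and the tests were chosen with earlier results of these data known. All 10 members are named, with the related genes called anywhere and the 3 most similar genes of each member. Alternatives were pseudocounts of 1 and 64, median centring, quantile normalisation, no filter, a replicate block, the scaled arrays only, no arrays against their label, the other VTC4 probe set, and leaving out each replicate. Comparisons of double with single deletions were added after values had been seen and were not checked under these alternatives.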

Additional observations from a re-analysis of the deposited data

Results flagged for a closer look

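PHO84 changed differently from WT in 3 strains by the F-test on the difference of time courses, with a limma adjusted p of 0.0001 in gcn4, 0.0067 in leu3 and 0.0021 in gcn4leu3. PHO5 (adjusted p = 0.013) and PHO81 (adjusted p = 0.012) also did in gcn4. The leu3 call was lost without WT replicate 1 or 2 or leu3 replicate 1 or 2. In gcn4 the count of 3 members fell to 1 without WT replicate 1 or 2 and to 2 without WT replicate 3. In gcn4leu3 the count stayed 1 in all 6 fits without 1 replicate. At single times the change of PHO84 exceeded that in WT by 4.03 at 90 min and 3.75 at 120 min in gcn4 and by 3.42 at 60 min in gcn4leu3, on the log2 scale. In gat1leu3 it was -3.19 relative to WT at 10 min, where replicate 3 went the other way from replicates 1 and 2. The change of SPL2 in gat1 exceeded that in WT by 2.61 at 90 min, and that of PHM8 in gcn4 was -2.41 relative to WT at 30 min. Each of these 6 single-time differences lost its call in at least 4 of the 6 fits that left out 1 replicate.

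The met31 array at 0 min, which enters no comparison, read above all 3 WT arrays of that time for 9 of the 10 members: PHO84 at 3829, PHO89 at 440.3, PHO5 at 310.9, PHO81 at 374.4, SPL2 at 288.4, VTC3 at 423.6, VTC4 at 577.6, PHM6 at 117.2 and PHM8 at 269. It is 1 unscaled array, and WT arrays were all scaled. How many of all genes read above the WT arrays there was not counted. VTC1, at 272, was below the WT arrays (1847 to 2327) at 0 min and above them at 10 min (4596). The cause was not tested.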

How the results depend on the processing

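Of the 204 called member values, which leave out those of double against single deletions, 0 changed direction under any alternative run. Calls were lost for 19 with median centring, 19 with a pseudocount of 1, 16 with a pseudocount of 64, 10 with quantile normalisation, 2 without the filter, 1 with the replicate block, 4 of 127 with the scaled arrays only and 28 without the 5 arrays against their label. Of 879 values in fits without 1 replicate 384 lost their call. The number of members changing over time in WT, 1 of 10, became 2 with median centring, quantile normalisation or without the arrays against their label, and 4 with the replicate block or the scaled arrays only. For the difference of response from WT, the replicate block moved the count from 3 to 6 in gcn4, 1 to 3 in leu3, 0 to 6 in gat1, 0 to 2 in gat1gcn4, 1 to 3 in gcn4leu3 and 0 to 1 in gat1leu3, while calling more of all genes too (231 in gcn4 against 80). The scaled arrays only gave 7 in gcn4, 3 in leu3 and 8 in gat1. A pseudocount of 64 gave 3 in gat1, and median centring or a pseudocount of 1 gave 1 in gat1leu3. The count of members differing from WT before 3AT in leu3 went from 0 to 1 with a pseudocount of 64, median centring, quantile normalisation, the replicate block, the scaled arrays only or without the arrays against their label. In gat1 it was 1 with the scaled arrays only, and in gat1gcn4 it was 1 with a pseudocount of 64 and 4 with the block. Without 1 replicate the count over time ran from 0 to 1 in WT, 3 to 7 in gcn4, 2 to 5 in leu3, 5 to 10 in gat1, 3 to 4 in gat1gcn4, 2 to 6 in gcn4leu3 and 0 to 1 in gat1leu3. Before 3AT it ran from 1 to 2 in gcn4, 0 to 5 in gat1gcn4 and 1 to 2 in gat1leu3 and stayed 0 in leu3, gat1 and gcn4leu3. For the difference of response it ran from 1 to 5 in gcn4, 0 to 1 in leu3 and 0 to 1 in gat1leu3, was 1 in gcn4leu3 and 0 in gat1 and gat1gcn4. With the replicate block the count over time was 10 in gat1 (1076 of all genes called) and 9 in gcn4 (1332 of all genes called). The cause of these shifts was not tested. The lowest array lay under 31.4, the highest 20th percentile of any array, in 24 of 56 groups for SPL2, 19 for PHM6 and 18 for PHM8, which limits how far their falls can be measured. Deviations from group means of same-numbered arrays correlated above 0.1 in 56 of 84 pairs of groups in WT, 75 of 77 in gcn4, 69 of 84 in leu3, 45 of 77 in gat1, 34 of 35 in gat1gcn4, 38 of 45 in gcn4leu3 and 32 of 40 in gat1leu3. Their median was 0.12 to 0.30 by strain, against -0.21 to -0.06 for different numbers, which deviations from a shared mean push below 0. This is a hint of pairing from the data; since not every pair passed and the labels state no shared source, the block was kept as an alternative.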
